A study of Mus musculus with 5 samples.

Results

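Hemidesmosome and dermal-epidermal junction genes were examined in 5 RNA-seq libraries of sorted dermal group 2 innate lymphoid cells (dILC2s). The 9 genes were taken by their symbols (*Itga6*, *Itgb4*, *Col17a1*, *Dst*, *Plec*, *Lama3*, *Lamb3*, *Col7a1* and *Cd151*) out of 47729 genes in the deposited table of counts, and all 9 were found and passed the filter on low counts. The comparison asks how the transcriptome of dILC2s differs between wild-type (WT) and Rag1-deficient (*Rag1*-/-) mice. There were 3 WT pools and 2 *Rag1*-/- pools, all from untreated skin of female C57BL/6 mice of 8 to 13 weeks, sequenced without stimulation outside the body. By the methods 10 mice went into a WT pool and 9 into a *Rag1*-/- pool, while the labels give 16 *Rag1*-/- mice in all. In the flow cytometry of the study, dILC2s were gated as viable, high in CD90 and positive for CD45, with CD2 and CD3 positive cells left out. *Rag1*-/- mice cannot recombine antigen receptor genes and lack mature T and B cells, so that the pools differ in their host as well as in the gene. The labels give type 2 innate lymphoid cells for the WT libraries and type 3 for the *Rag1*-/- libraries, whereas the protocol names dILC2s for both.

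Hemidesmosomes are the rivets by which basal keratinocytes hold on to the basement membrane under the epidermis. Integrin α6β4 and the transmembrane collagen XVII form their membrane part, the plakins plectin and dystonin tie them to the keratin filaments inside the cell, and laminin-332 and the anchoring fibrils of collagen VII hold them from outside. Inherited loss of these proteins causes epidermolysis bullosa, in which the skin blisters, and collagen XVII and the epithelial form of dystonin are the antigens of bullous pemphigoid. Lymphocytes build no hemidesmosomes, although α6 integrin, plectin and CD151 are made by many cell types.

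The libraries held 8050562 (*Rag1*-/- pool 2) to 39477243 counts (WT pool 6) on genes. The WT pools 5, 6 and 13 gave 4, 0 and 5 counts on *Rag1* itself, and the libraries labelled *Rag1*-/- gave 5 (pool 2) and 48 (pool 7). The targeted transcript was not lower there (log2 fold change 3.53, adjusted p = 0.0865, edgeR). With at most 0.152 CPM in WT it was near the floor, where a decrease could not be seen. These counts therefore cannot check the genotype, and the libraries are named by their labels only. All 11 ILC2 genes of a marker list were detected, and so were keratins: *Krt14* of basal keratinocytes had 1792 to 6118 CPM (counts per 1000000 counts of the library), against 122 to 1177 for *Ptprc*, which encodes the leukocyte antigen CD45. The summed level of 8 basal keratinocyte genes was 12886 to 14759 CPM in WT and 4106 and 7036 CPM in *Rag1*-/- pools 2 and 7. A list of 21 leukocyte genes summed to 970 to 2338 CPM in WT and to 7661 and 6666 CPM in *Rag1*-/- pools 2 and 7.

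Promoters are shown for 5 of the 9 genes, the ones with an entry among the RefSeq promoters of GRCm38.p6 used here. Each runs from 250 bases before to 50 bases after an annotated start, 5′ to 3′ on the gene's strand. *Col17a1* (chr19:47691993-47692292, minus strand), *Col7a1* (chr9:108953336-108953635, plus strand) and *Lamb3* (chr1:193301993-193302292, plus strand) stand for the genes that were lower in *Rag1*-/- libraries, and *Dst* (chr1:34011345-34011644 and chr1:34160010-34160309, plus strand) and *Cd151* (chr7:141467112-141467411, plus strand) for those that were not called. *Lamb3* and *Cd151* have another start each (chr1:193301744-193302043 and chr7:141468539-141468838, both plus strand), not printed, and the start shown was chosen by hand. Capitals mark matches to the GC box, the TATA box and the AP-1 motif, searched on both strands.
Col17a1: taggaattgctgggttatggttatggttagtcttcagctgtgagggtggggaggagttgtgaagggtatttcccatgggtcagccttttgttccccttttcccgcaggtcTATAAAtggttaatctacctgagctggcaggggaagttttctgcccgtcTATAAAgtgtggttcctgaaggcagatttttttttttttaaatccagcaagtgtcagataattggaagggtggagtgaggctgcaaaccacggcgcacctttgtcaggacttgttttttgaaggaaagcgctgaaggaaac
Col7a1: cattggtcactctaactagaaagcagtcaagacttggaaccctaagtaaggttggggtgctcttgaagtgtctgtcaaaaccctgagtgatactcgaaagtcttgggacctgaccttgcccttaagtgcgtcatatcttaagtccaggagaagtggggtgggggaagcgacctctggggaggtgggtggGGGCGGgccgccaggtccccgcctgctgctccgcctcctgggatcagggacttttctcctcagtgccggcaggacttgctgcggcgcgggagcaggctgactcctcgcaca
Lamb3: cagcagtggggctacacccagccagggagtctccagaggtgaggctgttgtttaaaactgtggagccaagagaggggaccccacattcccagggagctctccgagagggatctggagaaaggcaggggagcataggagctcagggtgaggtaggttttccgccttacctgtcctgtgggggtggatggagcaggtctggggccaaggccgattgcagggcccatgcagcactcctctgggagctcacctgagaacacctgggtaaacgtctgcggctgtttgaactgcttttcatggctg
Dst, first start: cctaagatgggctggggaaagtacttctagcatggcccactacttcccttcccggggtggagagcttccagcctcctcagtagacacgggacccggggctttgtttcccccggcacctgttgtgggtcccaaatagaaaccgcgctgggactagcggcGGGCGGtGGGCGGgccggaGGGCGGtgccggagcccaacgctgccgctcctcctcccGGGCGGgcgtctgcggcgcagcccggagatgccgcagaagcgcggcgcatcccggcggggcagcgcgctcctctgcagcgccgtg
Dst, second start: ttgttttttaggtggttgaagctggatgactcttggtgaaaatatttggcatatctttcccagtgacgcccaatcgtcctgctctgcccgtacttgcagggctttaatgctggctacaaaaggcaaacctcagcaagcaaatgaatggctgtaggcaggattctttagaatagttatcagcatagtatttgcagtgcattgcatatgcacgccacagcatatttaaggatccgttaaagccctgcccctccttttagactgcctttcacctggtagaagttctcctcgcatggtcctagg
Cd151: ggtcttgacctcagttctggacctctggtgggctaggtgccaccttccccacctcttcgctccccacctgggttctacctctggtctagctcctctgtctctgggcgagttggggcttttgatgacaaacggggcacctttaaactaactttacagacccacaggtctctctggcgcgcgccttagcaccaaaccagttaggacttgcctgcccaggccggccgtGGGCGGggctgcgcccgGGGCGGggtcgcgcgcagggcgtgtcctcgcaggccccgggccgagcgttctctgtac

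The GC box was searched as GGGCGG. The first *Dst* promoter held 4 GC boxes, the *Cd151* promoter printed held 2 and that of *Col7a1* held 1, and the other promoters printed held none. The *Cd151* and *Lamb3* promoters not printed held no match to any of the 3 motifs. At least 1 GC box was held by 35.7% of 32851 promoters of the same length. *Col17a1* held 2 matches to the TATA box, searched as TATAAA, at -140 and -91 from the annotated start. Such a match anywhere in the window was held by 13.6% of all promoters. None of the promoters printed held the AP-1 motif, TGANTCA, found in 7.81% of all promoters. The *Dst* windows belong to separate starts of 1 gene whose counts cannot be divided between them, and their GC content was 70.3% at the first start and 46.0% at the second.

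Of the 9 genes, 6 were lower in *Rag1*-/- than in WT libraries and none was higher past the threshold. A gene was called where edgeR's quasi-likelihood test gave it an adjusted p-value below 0.05 and its log2 fold change exceeded 1 in size (SE, standard error). Both subunits of integrin α6β4, collagen XVII, the α3 and β3 chains of laminin-332 and collagen VII fell, to between 0.270 and 0.401 of their mean level in WT. The plakins and the tetraspanin did not pass. *Plec* was 1.58-fold higher on average, and *Dst* and *Cd151* were 1.62-fold and 1.48-fold lower on average. Among all 19011 genes tested, 2.16% were called lower and 3.57% higher. The median log2 fold change of the 9 genes was -1.50, against 0.02 over all genes tested. In 7 of the 9 genes both *Rag1*-/- libraries lay below every WT library, an order found in 24.0% of all genes, and in *Plec* both lay above, as in 21.9% of all genes. In bulk RNA, fewer cells of a type and less RNA per cell cannot be told apart.

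**Figure D1:**
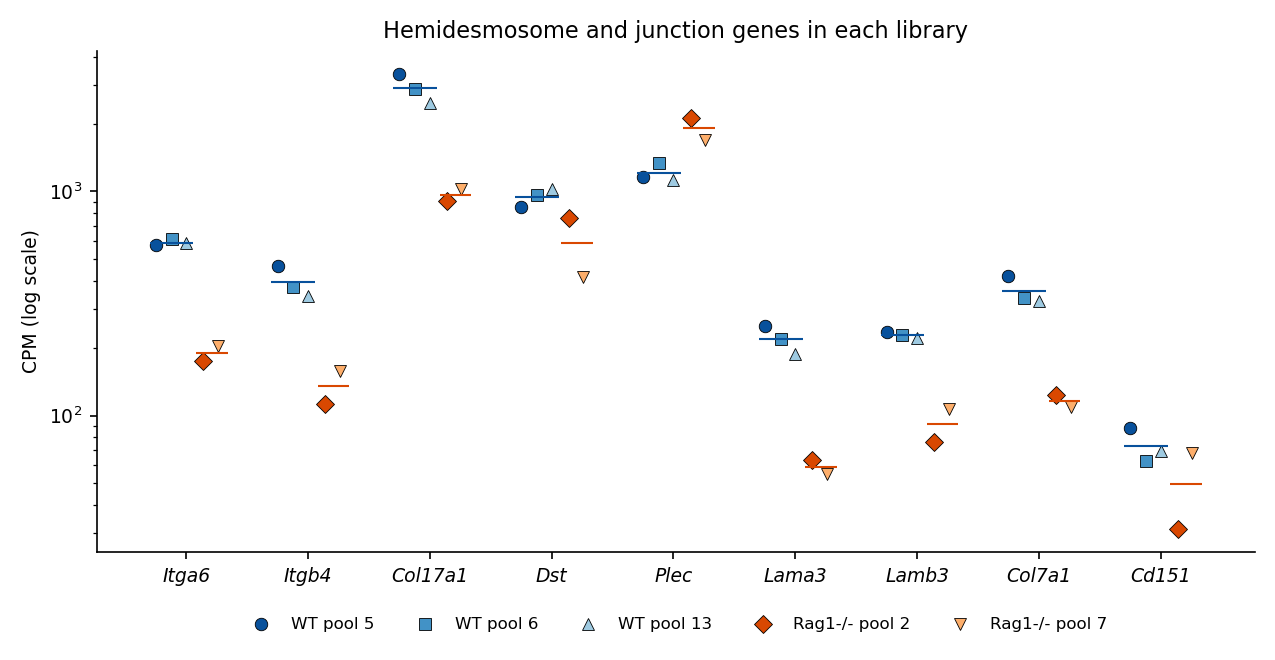
CPM of the 9 hemidesmosome and junction genes in each library on a log axis, with a symbol for each pool and a line for the mean of each genotype. *Itga6*, *Itgb4*, *Col17a1*, *Lama3*, *Lamb3* and *Col7a1* sit lower in both *Rag1*-/- pools, *Plec* sits higher, and *Cd151* overlaps.

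The integrin subunits were read first. *Itga6* (chromosome 2 of GRCm38, 71745616 to 71858416) encodes the α6 subunit, which pairs with β4 in hemidesmosomes and with β1 elsewhere. It had 578, 612 and 586 CPM in WT pools 5, 6 and 13 and 176 and 205 CPM in *Rag1*-/- pools 2 and 7. The WT pools lay close together and 3.11-fold above the *Rag1*-/- mean, with a log2 fold change of -1.60 (SE 0.22, edgeR adjusted p = 0.0306). *Itgb4* (chromosome 11, 115974709 to 116008412) encodes the β4 subunit, whose long cytoplasmic tail binds plectin. Its level was 465, 374 and 342 CPM in WT and 113 and 159 CPM in *Rag1*-/- libraries. WT pool 5 was the highest and *Rag1*-/- pool 2 the lowest, and the log2 fold change was -1.50 (SE 0.27, edgeR adjusted p = 0.0323). Per base of exon, the ratio of *Itga6* to *Itgb4* was 0.967, 1.27 and 1.33 in WT and 1.21 and 1.00 in *Rag1*-/- libraries. These ratios overlapped between genotypes.

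*Cd151* (chromosome 7, 141467362 to 141471479) encodes a tetraspanin that gathers laminin-binding integrins in the membrane. It had 87.6, 63.0 and 69.9 CPM in WT and 31.1 and 68.4 CPM in *Rag1*-/- pools 2 and 7. *Rag1*-/- pool 7 lay within the WT range and pool 2 below it, 2.20-fold under pool 7. The test was not passed (log2 fold change -0.51, SE 0.35, edgeR adjusted p = 0.414). With *Rag1*-/- pool 7 left out it passed as lower (-1.30, adjusted p = 0.0313, edgeR), in a fit where the 1 *Rag1*-/- library left takes its spread from the WT pools, and with pool 2 left out the value was -0.03 (adjusted p = 0.948, edgeR). The ratio of *Cd151* to *Itga6* per base of exon was 0.499, 0.339 and 0.393 in WT and higher in *Rag1*-/- libraries, at 0.581 and 1.10. It pairs a gene that was not called with one called lower, adds nothing to the calls and was not tested.

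*Col17a1* (chromosome 19, 47646344 to 47692094) encodes collagen XVII or BP180, the transmembrane collagen of the hemidesmosome. With 3358, 2879 and 2480 CPM in WT and 910 and 1024 CPM in *Rag1*-/- libraries it was the most abundant of the 9 genes in WT. The *Rag1*-/- libraries differed from each other by 1.13-fold and from WT by 3.00-fold on average (log2 fold change -1.55, SE 0.27, edgeR adjusted p = 0.0309). Outside the cell, *Col7a1* (chromosome 9, 108953586 to 108984875) encodes collagen VII of the anchoring fibrils. It had 421, 333 and 326 CPM in WT and 124 and 109 CPM in *Rag1*-/- libraries. The 3.09-fold difference between the means passed the test (log2 fold change -1.60, SE 0.22, edgeR adjusted p = 0.0306). Both collagens therefore separated the genotypes without overlap.

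Laminin-332 is the ligand of α6β4, and its α3 and β3 chains are among the 9 genes. *Lama3* (chromosome 18, 12333819 to 12583013), the α3 chain, showed the lowest log2 fold change of the 9 genes at -1.86 (SE 0.22, edgeR adjusted p = 0.0306). Its levels were 251, 219 and 189 CPM in WT and 63.5 and 55.0 CPM in *Rag1*-/- libraries, with no overlap. *Lamb3* (chromosome 1, 193207699 to 193343878), the β3 chain, had 237, 228 and 222 CPM in WT and 76.3 and 107 CPM in *Rag1*-/- libraries. The WT pools were nearly equal, and the log2 fold change was -1.28 (SE 0.23, edgeR adjusted p = 0.0329). Per base of exon, *Lama3* was 0.653, 0.591 and 0.523 of *Lamb3* in WT and 0.512 and 0.315 in *Rag1*-/- libraries. This ratio was lower in both *Rag1*-/- libraries, with pool 2 close to the lowest WT pool.

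The plakins were not called, and *Plec* alone among the 9 genes had a positive log2 fold change. *Plec* (chromosome 15, 76170974 to 76232574) encodes plectin, which links β4 integrin to keratin filaments and serves as a cytoskeletal linker in many other cells, leukocytes included. It had 1155, 1338 and 1129 CPM in WT and 2123 and 1698 CPM in *Rag1*-/- pools 2 and 7. Both *Rag1*-/- libraries were above every WT library, without passing the test (log2 fold change 0.69, SE 0.23, edgeR adjusted p = 0.12). DESeq2 gave *Plec* a log2 fold change of 0.65, under the threshold of 1, at an adjusted p of 0.031. The ratio of *Plec* to *Itgb4* per base of exon was 0.963, 1.38 and 1.28 in WT and 7.29 and 4.14 in *Rag1*-/- libraries. The 2 genes were at like levels in WT on this scale and *Plec* was the higher in both *Rag1*-/- libraries. Since *Itgb4* was called lower, this ratio adds nothing to the calls, and it was not tested.

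*Dst* (chromosome 1, 33908225 to 34308661) encodes dystonin, with an epithelial form (BP230) that binds collagen XVII and longer forms of nerve and muscle. Its counts cover all forms. It had 854, 965 and 1022 CPM in WT and 758 and 415 CPM in *Rag1*-/- pools 2 and 7. *Rag1*-/- pool 2 stood close to the lowest WT pool and pool 7 clearly under it, so that the *Rag1*-/- libraries differed from each other (0.547 for pool 7 over pool 2) in the opposite sense to *Cd151*. It did not pass either (log2 fold change -0.67, SE 0.29, edgeR adjusted p = 0.201). On the opposite strand, *Gm26788* overlaps 2.52% of the exon length of *Dst*. The WT counts of *Gm26788* were 1329, 1270 and 1178, against 87 and 205 in *Rag1*-/- pools 2 and 7. Since counting by strand is not stated, reads from the shared bases cannot be assigned to one of them.

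Levels of different genes were compared per kilobase of exon (CPM per kb). In WT, *Col17a1* led with 483 ± 73.1 CPM per kb (SD, n = 3), followed by *Plec* (66.6 ± 6.28), *Itga6* (65.6 ± 1.97) and *Itgb4* (56.1 ± 9.08 CPM per kb, SD, n = 3 each). *Col7a1* and *Lamb3* had mean levels of 35.0 ± 5.12 and 34.6 ± 1.10 CPM per kb. *Cd151* (26.8 ± 4.63), *Dst* (23.0 ± 2.08) and *Lama3* (20.4 ± 2.90 CPM per kb) closed the order. Neighbours from *Plec* to *Itgb4*, *Col7a1* and *Lamb3*, and *Cd151* to *Lama3* differed by less than the sum of their SDs. In *Rag1*-/- libraries *Col17a1* had 161 ± 13.4 and *Plec* 105 ± 16.6 CPM per kb (SD, n = 2). The integrin subunits followed at 21.1 ± 2.24 and 19.4 ± 4.64, and *Lama3* was again the lowest at 5.51 ± 0.56 CPM per kb (SD, n = 2 each). For *Dst*, whose exons of all forms add up to 41155 bases, this scale gives a low level.

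The keratins to which hemidesmosomes attach were lower on average but not called. *Krt5* had 6091, 5067 and 5019 CPM in WT and 1632 and 2731 CPM in *Rag1*-/- libraries (log2 fold change -1.27, SE 0.33, edgeR adjusted p = 0.0666). *Krt14* had 6118, 5304 and 5108 CPM in WT and 1792 and 3049 CPM in *Rag1*-/- libraries (log2 fold change -1.15, SE 0.33, edgeR adjusted p = 0.084). The *Rag1*-/- libraries did not overlap WT in either keratin. They differed from each other by 1.67-fold for *Krt5* and 1.70-fold for *Krt14*, with pool 7 higher.

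Within a library, the 9 genes were then set against *Krt14* per base of exon, a description for which the pair was chosen with the levels known. Relative to the WT mean of this ratio, *Rag1*-/- pool 2 was at 0.966 for *Col17a1*, 0.885 for *Itgb4*, 0.908 for *Itga6*, 1.02 for *Lamb3*, 1.06 for *Col7a1* and 0.891 for *Lama3*. In that pool these genes kept about the WT proportion to *Krt14*, although *Itgb4* and *Lama3* lay below every WT pool (lowest 0.940 and 0.928). *Rag1*-/- pool 7 was at 0.639 for *Col17a1*, 0.732 for *Itgb4*, 0.620 for *Itga6*, 0.844 for *Lamb3*, 0.549 for *Col7a1* and 0.453 for *Lama3*. It lay below every WT pool for each of these genes. *Plec* was at 5.37 in pool 2 and 2.52 in pool 7. *Dst* was at 2.43 in pool 2 and 0.782 in pool 7, on opposite sides of the WT pools, and *Cd151* at 1.30 and 1.69, above all of them.

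**Figure D2:**
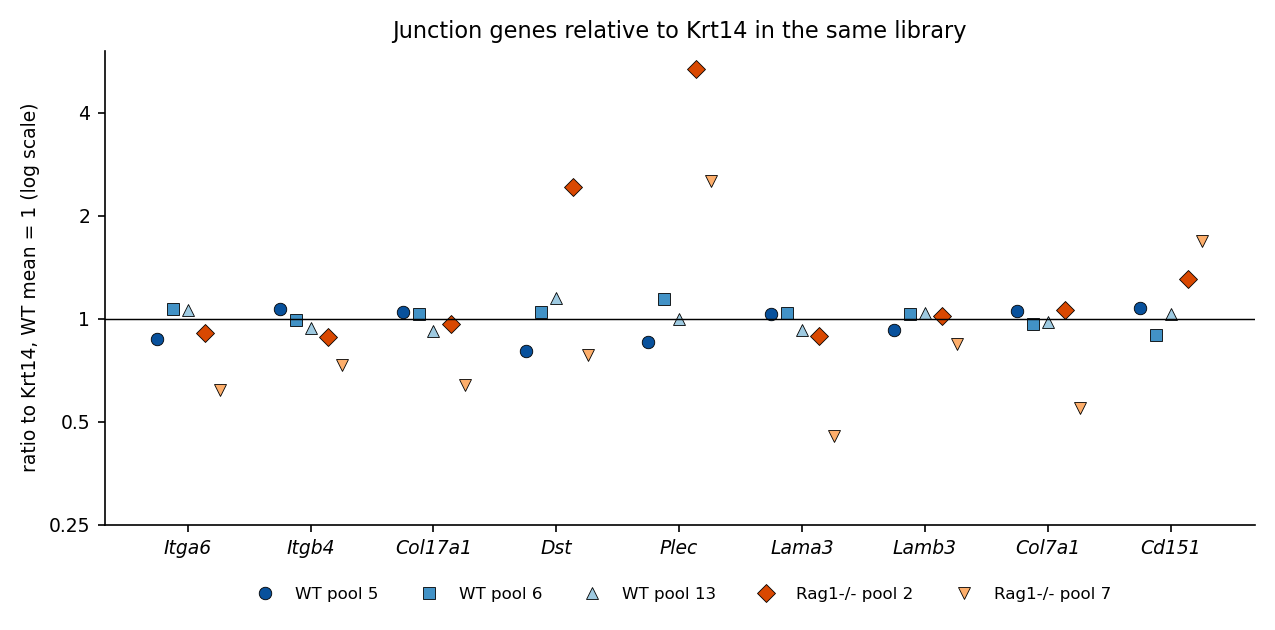
Ratio of each of the 9 genes to *Krt14* in the same library, per base of exon and divided by the WT mean, on a log axis with a symbol for each pool. *Rag1*-/- pool 2 lies near 1 for the integrins, collagens and laminins, *Rag1*-/- pool 7 lies below, and *Plec* is at 5.37 and 2.52.

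Keratinocyte genes were lower together with the hemidesmosome genes. All 8 basal keratinocyte genes, *Krt5* and *Krt14* among them and none of the 9 genes, were negative in log2 fold change (median -1.41), and 4 passed as lower. All 13 suprabasal genes were negative with a median of -1.75, and 1 passed. Their summed level was 14806 to 28630 CPM in WT and 1422 and 10761 CPM in *Rag1*-/- pools 2 and 7, so that the *Rag1*-/- pools differed more in suprabasal than in hemidesmosome genes. Of 14 desmosome genes, which join keratinocytes to each other, all were negative with a median of -1.85 and 9 passed as lower. The desmosome and suprabasal lists share *Dsg1a* and *Dsc1*. The 21 leukocyte genes were all positive with a median of 2.00, and 16 passed as higher. The 11 ILC2 genes, each above 0, had a median of 1.88 and 3 calls as higher. Among all 19011 genes tested, 2.16% were called lower and 3.57% higher, and 9236 had a negative log2 fold change (edgeR). No gene of 9 fibroblast, 10 endothelial or 6 melanocyte genes passed in either direction (edgeR), and the medians were -0.03, -0.48 and -0.47. At an unadjusted p-value under 0.05 there were 0, 1 and 0. Of 6 T cell genes tested 2 passed as higher, and of 6 skeletal muscle genes tested 1 did (edgeR). None of 6 Schwann cell genes passed. Their summed level was 563 to 708 CPM in WT and 239 and 916 CPM in *Rag1*-/- pools 2 and 7. The part of these cell types in the differences was not tested.

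The libraries were also scaled on marker genes, to state each gene relative to a cell type. Scaled on the 8 basal keratinocyte genes, a scaling chosen after seeing the data, none of the 9 genes was called lower (0.110% of all genes) and *Plec* was called higher, as were 58.9% of all genes. The log2 fold changes were -0.15 for *Itga6*, -0.06 for *Itgb4*, -0.07 for *Col17a1*, -0.08 for *Col7a1*, -0.34 for *Lama3* and 0.14 for *Lamb3*, with adjusted p-values from 0.407 to 0.871 (edgeR). *Plec* stood at 2.22 (SE 0.39, edgeR adjusted p = 0.00258), *Dst* at 0.91 (adjusted p = 0.114) and *Cd151* at 0.84 (adjusted p = 0.0334, under the fold threshold, edgeR). The median of all genes was then 1.49, above the values of the 9 genes other than *Plec*, with 21 genes called lower and 11194 higher, where TMM gave 411 and 679. Scaled on basal and suprabasal genes together, *Plec* was again the 1 gene of the 9 called higher, with 60.0% of all genes (14 lower, 11404 higher). Scaled on the leukocyte genes, all 9 were called lower, *Plec* included (log2 fold change -1.65, adjusted p = 0.0401, edgeR), with 75.0% of all genes (14250 lower, 14 higher).

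**Figure D3:**
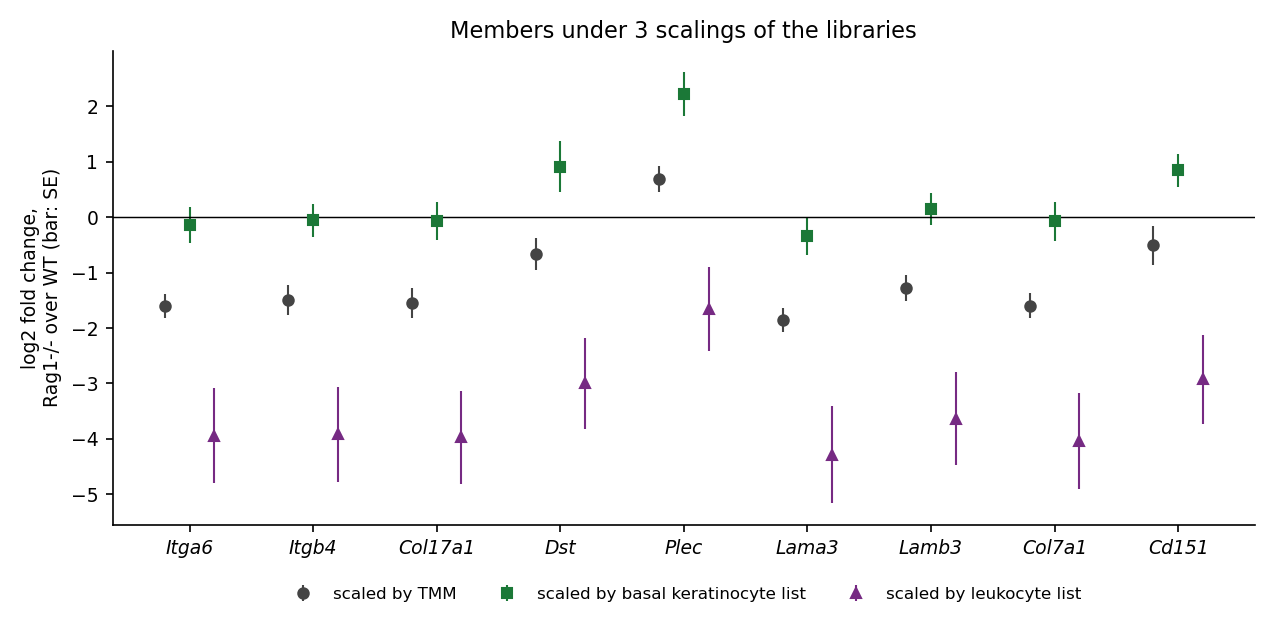
Log2 fold change of *Rag1*-/- over WT for each of the 9 genes with its standard error, with libraries scaled by TMM, on the basal keratinocyte list or on the leukocyte list. With the basal list, *Itga6*, *Itgb4*, *Col17a1*, *Lama3*, *Lamb3* and *Col7a1* lie between -0.34 and 0.14 and *Plec* at 2.22.

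Other genes of the same structures were counted from a list of 28, namely hemidesmosome partners, integrins and linkers of basal cell adhesion, and basement membrane genes. Of these, 7 passed as lower and none as higher with edgeR, with a median log2 fold change of -0.55. Among all genes tested, 2.16% were called lower and 3.57% higher. At an unadjusted p-value under 0.05 (edgeR), 15 of the 28 were lower and 3 higher. None passed as higher with DESeq2. The adhesion genes *Itga2* (an integrin subunit of the collagen receptor) and *Fermt1* (kindlin-1, an activator of integrins in keratinocytes) fell, by 1.33 and 1.62 on the log2 scale (adjusted p = 0.036 and 0.0365, edgeR). *Fermt1* had 38.0, 39.8 and 37.2 CPM in WT and 8.07 and 15.6 CPM in *Rag1*-/- libraries. The other 6 of 8 adhesion genes did not pass. In 4 of the 8 both *Rag1*-/- libraries lay below every WT library, and in 2, *Tln1* and *Ilk*, above. *Tln1* had 312, 374 and 341 CPM in WT and 689 and 604 CPM in *Rag1*-/- libraries. It missed the call by fold size only (0.947 on the log2 scale, adjusted p = 0.0438, edgeR). *Ilk* had at most 1.37 CPM in a library (adjusted p = 0.328, edgeR).

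Of 18 basement membrane genes, both *Rag1*-/- libraries lay below every WT library in 9 and above in 2. These orders were found in 24.0% and 21.9% of all genes. The 2 above were *Lamc1* and *Npnt*, with log2 fold changes of 0.771 and 0.582 (adjusted p = 0.0709 and 0.0925, edgeR). Past the threshold none of the 18 was higher (3.57% of all genes tested) and 5 were lower (2.16%). They were *Col4a6* (log2 fold change -1.95) and *Col4a5* (-1.78), the collagen IV chains that associate with each other, *Frem2* (-1.72), a protein of the sublamina densa, *Lama5* (-1.47), a laminin α chain, and *Agrn* (-1.11), a proteoglycan, with adjusted p-values from 0.0306 to 0.0457 (edgeR). *Col4a6* had 77.8, 69.9 and 64.3 CPM in WT and 15.8 and 19.7 CPM in *Rag1*-/- libraries. The more widely made chains *Col4a1* and *Col4a2*, chosen for mention after their values were seen, had log2 fold changes of 0.03 and -0.003 (adjusted p = 0.962 and 0.995, edgeR). Per base of exon, *Col4a6* was 0.341, 0.444 and 0.299 of *Col4a2* in WT and 0.0834 and 0.098 in *Rag1*-/- libraries. Chosen in the same way, *Itga3*, the α chain of the other laminin-332 receptor, had a log2 fold change of -0.14 (adjusted p = 0.711, edgeR). The ratio of *Itga6* to *Itga3* was 1.51, 1.54 and 1.66 in WT and 0.558 and 0.577 in *Rag1*-/- libraries. Both of these ratios did not overlap between genotypes, which follows from pairing a called gene with a nearly unchanged one. They add nothing to the calls, and neither was tested.

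**Figure D4:**
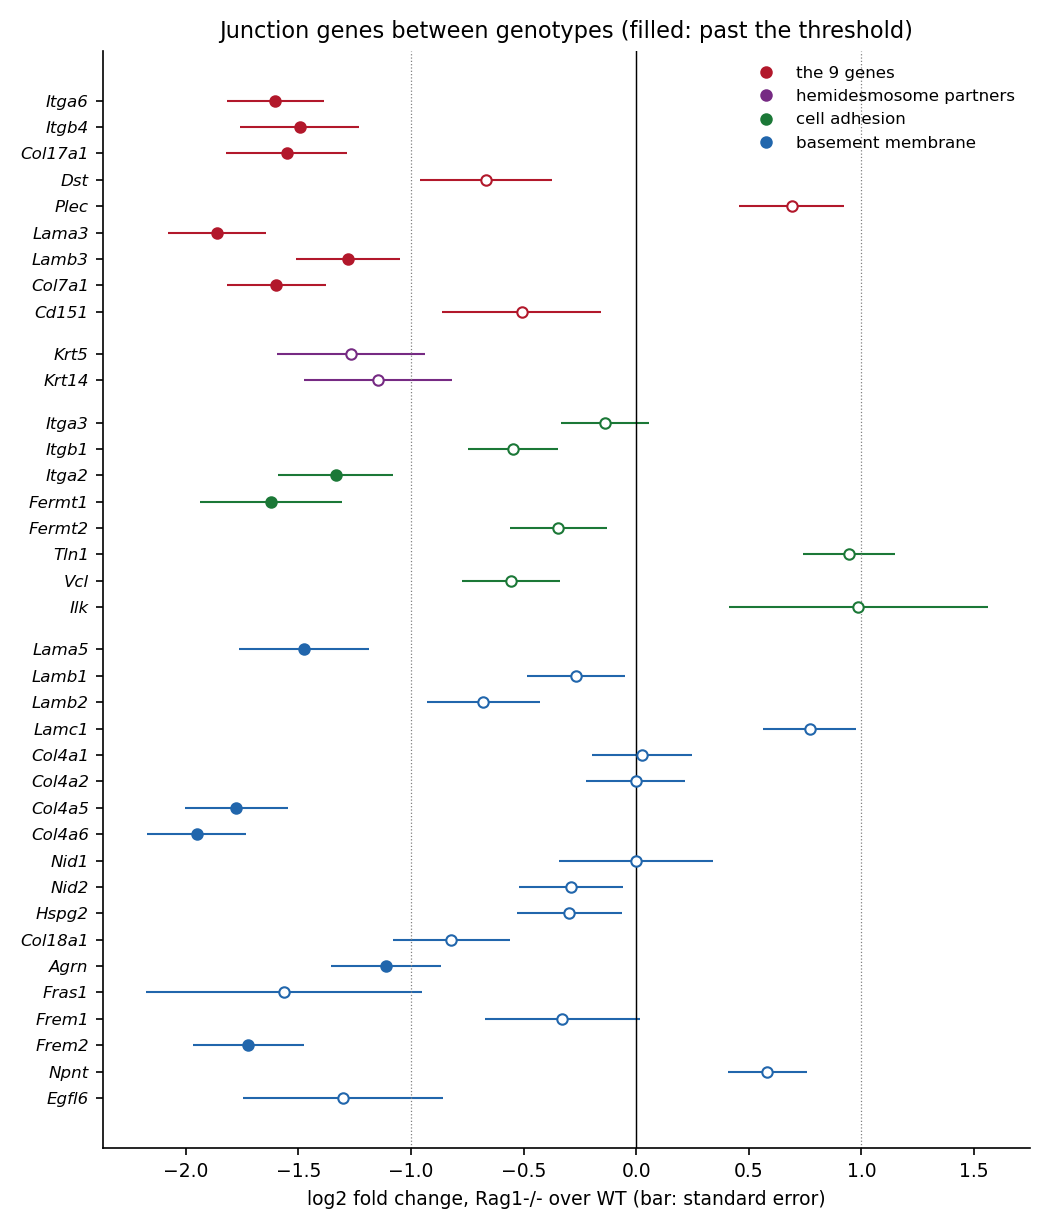
Log2 fold change of *Rag1*-/- over WT with its standard error for the 9 genes and the 28 other genes of the hemidesmosome, cell adhesion and basement membrane. Filled points passed the threshold, and all of them lie to the left of -1.

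**Figure D5:**
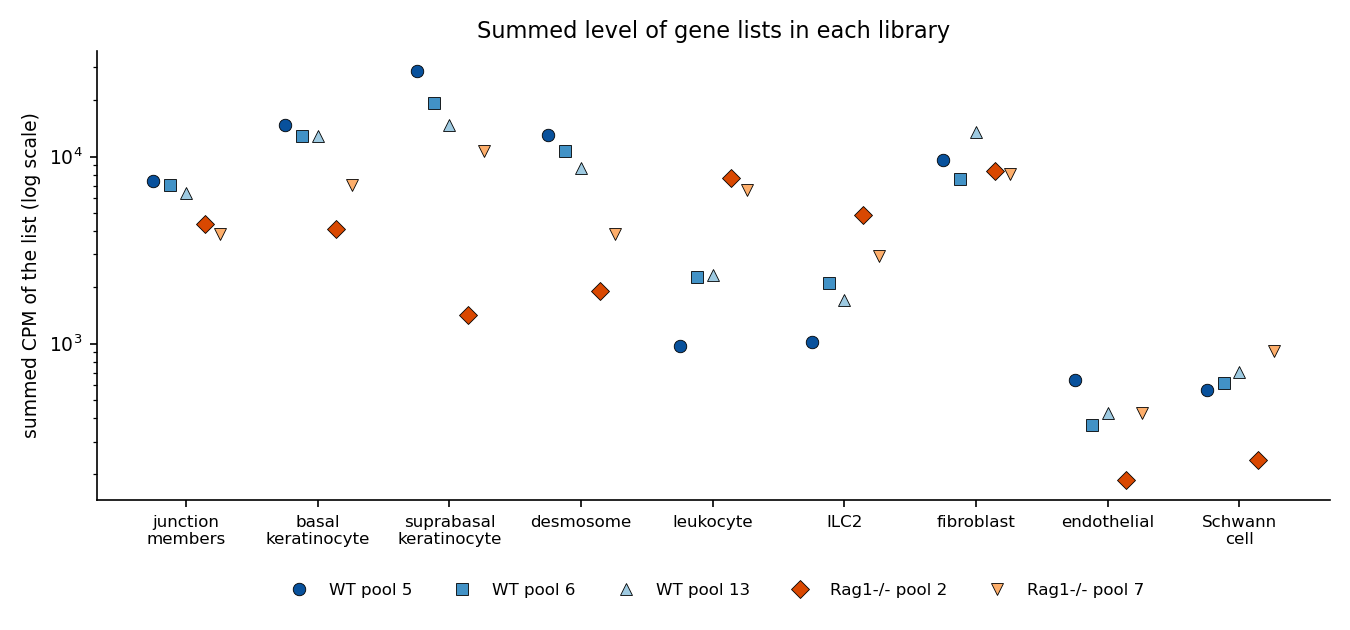
Summed CPM of gene lists in each library on a log axis, with a symbol for each pool. The keratinocyte and desmosome lists are lower and the leukocyte and ILC2 lists higher in both *Rag1*-/- pools, and the suprabasal list is at 1422 CPM in pool 2 and 10761 CPM in pool 7.

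The genes whose levels followed the hemidesmosome genes most closely were found by the distance of their centred log2 CPM over the 5 libraries to the median profile of the 9 genes. The nearest 5 of the genes with at least 10 CPM on average were *Mllt4* (distance 0.16), *Sox6* (0.16), *Tjp1* (0.18), *Serpinb2* (0.18) and *Stox2* (0.19). *Mllt4* encodes afadin of adherens junctions and *Tjp1* the tight junction protein ZO-1. Whether junction genes are frequent among near profiles was not tested. The comparison covered 10027 genes with the genotype difference left in. A gene lower to a like degree in both *Rag1*-/- pools therefore lies near. *Tjp1* had 179, 157 and 151 CPM in WT and 59.1 and 61.8 CPM in *Rag1*-/- libraries. Among the 9 genes themselves, *Col17a1* (0.24) and *Itga6* (0.28) were nearest and *Plec* (2.38) farthest, with *Cd151* at 1.17 and *Dst* at 1.13.

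With DESeq2, the tool of the study, the same number of the 9 genes was lower, as were 7.65% of its 16428 genes (1256 lower, 1197 higher). With *Rag1*-/- pool 7 left out the 6 genes stayed called and *Cd151* was added, where 7.98% of all genes were lower. With either *Rag1*-/- pool left out, the *Rag1*-/- arm is 1 library that is assumed to vary as the WT pools do. The calls of the 6 genes were lost with *Rag1*-/- pool 2 or any WT pool left out. Without WT pool 5, 6 or 13, no gene of the table passed (edgeR). In these fits 6 or 7 of the 9 genes had an unadjusted p-value under 0.05, in either direction. So did 3521 of 18386 genes without WT pool 5, 3735 of 18467 without pool 6 and 3874 of 18562 without pool 13. The log2 fold changes of the 6 genes without *Rag1*-/- pool 2 or any WT pool were between -1.97 (*Lama3*) and -1.02 (*Lamb3*), all negative as with all libraries.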

How the data were processed

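RNA of sorted dILC2s was sequenced by the authors (TruSeq RNA v2, 200 ng of RNA, single reads of 50 bases). Per the labels and the methods, reads were aligned to GRCm38 with STAR 2.5 and counted with featureCounts 1.5.0-p1. The series text and the paper name different Ensembl releases, and GRCm39 also stands in the processing notes. The authors deposited counts per gene without normalization, used for all main results, and a normalized signal per gene symbol, counts divided by a size factor and rescaled. Depth was 8050562 to 39477243 counts per library.

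Genes with low counts were removed with filterByExpr, libraries scaled by TMM, and genotypes compared with edgeR 4.0.16 in R 4.3.3 (quasi-likelihood test, Benjamini-Hochberg adjustment over 19011 genes). Standard errors came from the log2 fold change and F statistic. Levels are CPM on total counts. Exon lengths are those of all forms in GENCODE M21 (GRCm38), which held 99.12% of the gene IDs, since the listed length of *Lamb3* (1240 bases) was far under its annotated exons (6612). List scaling divided each gene by its geometric mean over the libraries and took the median of these ratios over the list in each library. The tests were checked on simulated counts. Alternatives were DESeq2 1.42.0, RLE, library size alone, 3 list scalings, other filters, the adjusted p-value alone, limma 3.58.1 on log2 of the deposited signal plus 1, and each library left out.

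The genes and lists were chosen with earlier results of these data known. Named were the 9 genes, *Krt5* and *Krt14*, listed genes past the threshold (at most 5 a list), the 5 nearest profiles, and marker genes. Adhesion and basement membrane genes above every WT library were also named, after their values were seen. A related gene is not reported here and was left out of the counts over the lists. Pools count as replicates by the methods.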

Additional observations from a re-analysis of the deposited data

How the results depend on the processing

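RLE scaling, library size alone, omission of the filter, a minimum of 10 counts, limma on the deposited signal, the adjusted p-value alone and DESeq2 each called 6 of the 9 genes lower and none higher. Of the 28 related genes 7 were lower, 11 with DESeq2 and 7 to 10 under the rest of these settings, and 1 was higher with the adjusted p-value alone. Leaving out 1 library gave 0 to 7 of the 9 genes and 0 to 8 of the 28 as lower. Scaled on the basal list or on both keratinocyte lists, 0 of the 9 genes were lower and 1 higher, and 0 of the 28 lower and 12 higher. Of all genes, 58.9% with the basal list and 60.0% with both lists were called higher, and 0.110% and 0.0736% lower. Scaled on the leukocyte list, 25 of the 28 were lower, as were 75.0% of all genes. With the basal list the log2 fold change turned positive for *Dst* (0.91), *Lamb3* (0.14) and *Cd151* (0.84). With both keratinocyte lists it did so for *Itga6* (0.54), *Itgb4* (0.60), *Col17a1* (0.64), *Dst* (1.74), *Lama3* (0.43), *Lamb3* (0.78), *Col7a1* (0.69) and *Cd151* (1.36). With the leukocyte list *Plec* turned negative (-1.65). These scalings moved the median of all genes to 1.49, 2.19 and -2.32, which is part of their construction. Over all genes, 411 were lower and 679 higher, against 1256 and 1197 with DESeq2, 1488 and 1157 without the filter and 641 and 856 with the minimum of 10 counts. No paired analysis was possible because the groups share no replicate numbers. Among the 9 genes in the single libraries the lowest count was 250 (*Cd151*, *Rag1*-/- pool 2), so that depth did not limit detection of any of them, and the number of pools limits the precision.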

Other observations

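Genes that overlap the 9 on the genome were checked in the annotation. *B230344G16Rik* overlaps 7.66% of the exon length of *Itgb4* on the opposite strand. It was counted 139, 105 and 71 times in WT and 4 and 6 times in *Rag1*-/- pools 2 and 7. *Parp10* shares 1.13% of the exon length of *Plec* on the same strand and was counted 1205, 951 and 666 times in WT against 247 and 1112 times in *Rag1*-/- pools 2 and 7. *Gm10575*, which overlaps 7.04% of the exon length of *Cd151* on the opposite strand, had at most 23 counts in a library. The listed span of *Lamb3* holds *Hsd11b1* and *G0s2* on the opposite strand, with no shared exon base. Counts per gene do not separate the shared bases.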
